A study of Homo sapiens with 15 samples.

Results

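The 8 genes that encode the subunits of condensin were followed in LNCaP cells, a human prostate cancer cell line that grows in response to androgen. They were taken by name: NCAPD3, NCAPG2 and NCAPH2, which belong to condensin II alone, NCAPD2, NCAPG and NCAPH, which belong to condensin I alone, and SMC2 and SMC4, which both complexes share. All 8 were among the 17272 genes of the expression table. By the sample labels, 5 libraries were of cells given the synthetic androgen R1881 (1 nM) with darolutamide (2 µM), an antiandrogen used in prostate cancer, and 10 were of cells given R1881 (1 nM) with the vehicle DMSO, called R1881 here. All cells were first starved for 2 days in medium with charcoal-stripped serum, which is poor in steroids, and were harvested 22 h after treatment. The paper's methods swap the group sizes and state another R1881 concentration, and the labels were followed here. No library of cells without androgen is in the comparison, so that the values below show R1881 with darolutamide against R1881 and not the response to R1881 itself.

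Condensins are ring-shaped complexes that use ATP to extrude loops of DNA and so compact chromosomes for cell division. SMC2 and SMC4 form the ATPase core of both complexes, a kleisin subunit (NCAPH or NCAPH2) closes the ring, and a pair of HEAT-repeat subunits (NCAPD2 with NCAPG, or NCAPD3 with NCAPG2) binds DNA and regulates the ring. Condensin II is in the nucleus throughout the cell cycle, whereas condensin I reaches the chromosomes once the nuclear envelope has broken down.

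The libraries held 15830745 to 25317567 reads on listed genes, and the table gives the reads of each gene divided by 1 factor per library, called scaled CPM here since the values of a library sum to between 1005403 and 1078567. All 7 luminal prostate markers looked up, among them KRT8, HOXB13 and FOLH1, were measured. Their summed level was 3013 to 3514 scaled CPM with darolutamide and 5852 to 7290.3 with R1881. The markers did not move together. FOLH1 was higher with darolutamide, at a mean of 1245 against 740 scaled CPM. HOXB13 was at 291 against 283, and the others were lower. Of the markers of other cell types, none of 4 leukocyte genes was listed in the table, 1 of 3 basal epithelial genes summed to 0.528 to 0.878 against 0.706 to 1.44 scaled CPM, 1 of 3 endothelial genes to 3.56 to 4.10 against 2.08 to 2.84, and 3 of 6 fibroblast genes to 13.5 to 30.6 against 6.36 to 10.5. The fibroblast genes COL1A2, DCN and FAP were not listed. The endothelial and fibroblast sums were higher with darolutamide, and their part in the results was not tested. Of 9 androgen-induced genes used to check the labels, 8 were lower with darolutamide by the test given below and 1 did not pass. Of all genes, 23.7% were lower. KLK3, which encodes PSA, was at 615 ± 55.9 scaled CPM with darolutamide (SD, n = 5) and 1588 ± 209 with R1881 (SD, n = 10). The composition of the libraries also moved with treatment, without overlap: mitochondrial genes took 3.12% to 3.94% of values with darolutamide and 2.65% to 3.02% with R1881, and the 20 most abundant genes 7.33% to 8.12% and 6.47% to 6.80%. Its part in the results was not tested. Darolutamide replicate 4 stood apart over the whole table, with a chi-square per degree of freedom of 32.6 to 67.7 to the other darolutamide libraries, against 2.33 to 9.99 among those 4 and 1.63 to 27.2 among the R1881 libraries, and without it all 8 members were lower. The labels number the libraries in separate runs, 86 to 90 for R1881 with darolutamide and 51 to 55 and 71 to 75 for R1881, so that no run holds both treatments and what differs between runs cannot be told apart from treatment. The study calls the libraries biological replicates, but the labels do not say that they came from separate cultures, so a p-value speaks only to how far these libraries spread, which may be technical.

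Of the 8 condensin genes, 7 were lower in LNCaP cells given R1881 with darolutamide than with R1881, none was higher, and NCAPH2 did not pass the test (limma on log2 of the scaled CPM plus 0.5, Benjamini-Hochberg adjusted p below 0.05 over all genes). Over all genes of the table, 23.7% were lower and 22.8% were higher, 4098 and 3946 genes. Scaled to library totals instead, 3030 genes were lower and 5326 higher, and again 7 of the 8 members were lower. No member was higher at an unadjusted p below 0.05, nor by DESeq2 or edgeR. NCAPD3 had by far the largest change of the 8, with a log2 fold change of -3.69, while the other 7 lay between -0.70 and -0.16. The median log2 fold change was -0.42 for the 8 genes and 0.00 for all genes. In 6 of the 8, namely NCAPD3, NCAPG2, NCAPD2, NCAPG, NCAPH and SMC4, every darolutamide library was below every R1881 library, which held for 12.6% of all genes. In RNA from whole cultures, fewer cells of a kind, such as dividing cells, and less RNA per cell cannot be told apart.

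**Figure D1:**
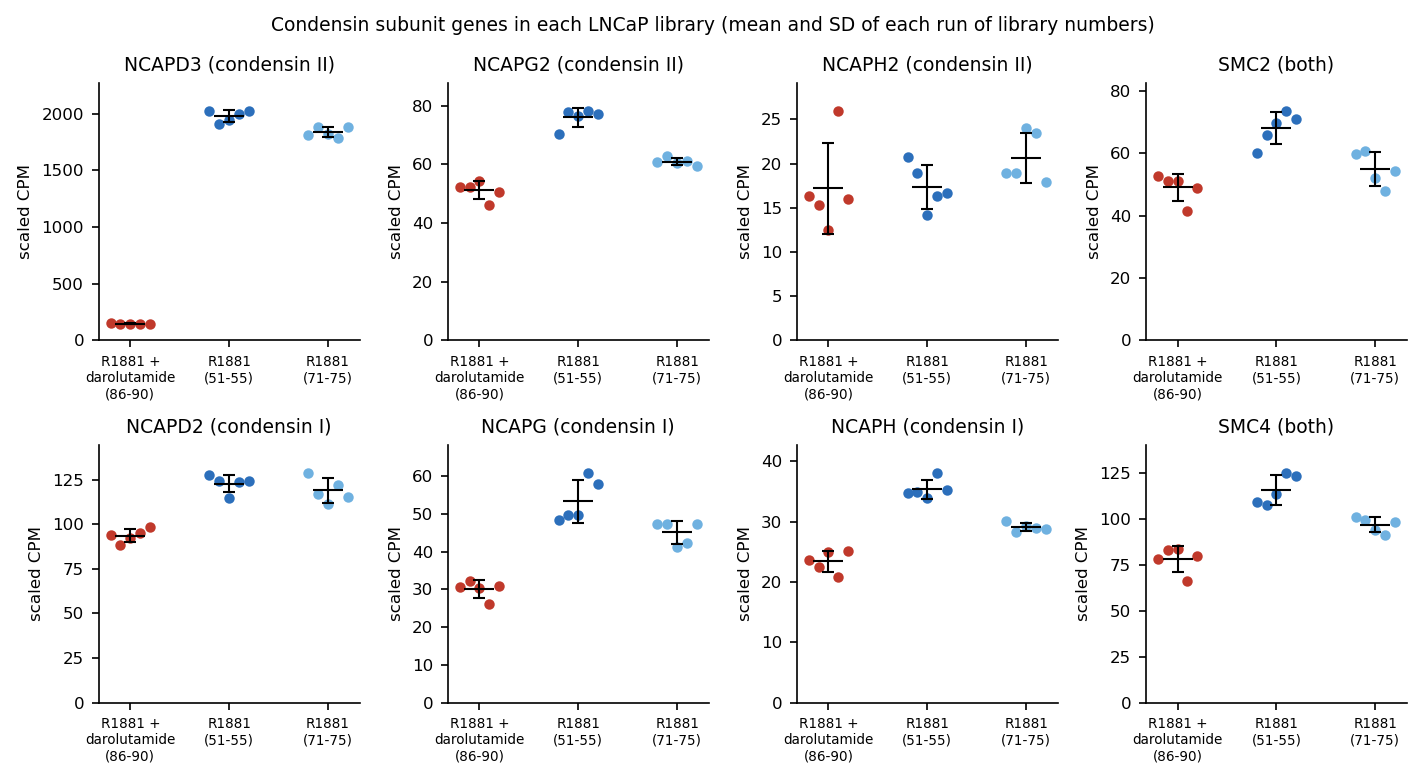
Scaled CPM of each condensin gene (vertical axes, starting at 0) in every library, with 1 point per library and bars for the mean and SD of each run of library numbers, R1881 with darolutamide (86-90) at the left and R1881 (51-55 and 71-75) to its right. NCAPD3 is at 142 to 157 with darolutamide and at 1785 to 2026 with R1881, while NCAPH2 overlaps between the treatments and has 1 darolutamide library, at 26.0, above the other 4 at 12.5 to 16.3.

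NCAPD3, the HEAT-repeat subunit that binds condensin II to chromatin, fell to 7.70% of its R1881 level. It measured 156.8, 145.7, 142.1, 142.7 and 146.4 scaled CPM in darolutamide replicates 1 to 5, against a lowest value of 1785, a median of 1896 and a highest value of 2026 scaled CPM in the R1881 libraries. The means were 147 ± 5.93 scaled CPM with darolutamide (SD, n = 5) and 1907 ± 88.4 with R1881 (SD, n = 10), a log2 fold change of -3.69 with a standard error of 0.036 (limma adjusted p = 4.51e-21). The spread within each treatment was thus small beside the gap between them. The values rest on 3026 to 3932 reads per library with darolutamide and 26736 to 45171 with R1881. In rank of level among the 17272 genes, NCAPD3 stood at 1390 with darolutamide and at 23 with R1881, and it made up 0.0145% ± 0.00064 and 0.179% ± 0.0077 of all values (SD, n = 5 and 10). No gene had a smaller p than NCAPD3, also under each of 25 other settings of the analysis. Under DESeq2 its p was too small to be told from 0, so other genes may tie with it there. NCAPD3 had the 4th lowest log2 fold change, a rank that ran from 2 to 9 over those settings. Against R1881 libraries 51 to 55 alone the log2 fold change was -3.75, and against 71 to 75 alone -3.64.

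The gene (ENSG00000151503.14) lies on the minus strand of chromosome 11 of GRCh38, from 134150113 to 134225504. RefSeq (GRCh38.p14) gives it 2 starts in the table of promoters used here, which covers 250 bases before and 50 after each start. The downstream start is shown because it holds letters known from genes of the cell cycle, which the upstream start did not. It was thus picked for its matches, and the shares of all promoters given below are no test of them. In capitals are GCGGGAAA, the other strand of a word bound by E2F factors (TTTCCCGC), and ATTGG, the other strand of the NF-Y box CCAAT, which occurs 2 times. The stretch is chr11:134223973-134224217, minus strand, read toward the gene.
NCAPD3 promoter: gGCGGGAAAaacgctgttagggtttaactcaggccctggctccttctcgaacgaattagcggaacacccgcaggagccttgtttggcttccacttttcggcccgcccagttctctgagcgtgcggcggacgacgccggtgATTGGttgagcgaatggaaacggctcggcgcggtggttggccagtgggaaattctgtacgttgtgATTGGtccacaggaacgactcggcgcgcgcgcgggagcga
Over 35116 RefSeq promoters of the same 300 bases, searched on both strands, 3.31% held 1 of the E2F words (TTTCCCGC, TTTGGCGC, TTTCGCGC or TTTGCCGC) and 34.6% the NF-Y box, and in NCAPD3 these matches overlapped neither each other nor the element below. The androgen response element, a DNA element of androgen-regulated genes, was searched only as the exact 15 bases made of AGAACA and its inverse with 3 free bases between them. Neither NCAPD3 promoter held the whole element or AGAACA alone, which 0.00285% and 14.8% of all promoters did. Among the other members, AGAACA was found at the second start of SMC2. The whole element was also not found within 50 kb of the start of any of the 8 genes, a window chosen after the values were seen, against 1.82% of 14686 genes with a position. At so low a share, finding none near 8 genes says little. Forms of the element with other letters were not searched, so the search cannot show that a gene lacks one. These are matches of letters only, and binding was not measured.

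**Figure D2:**
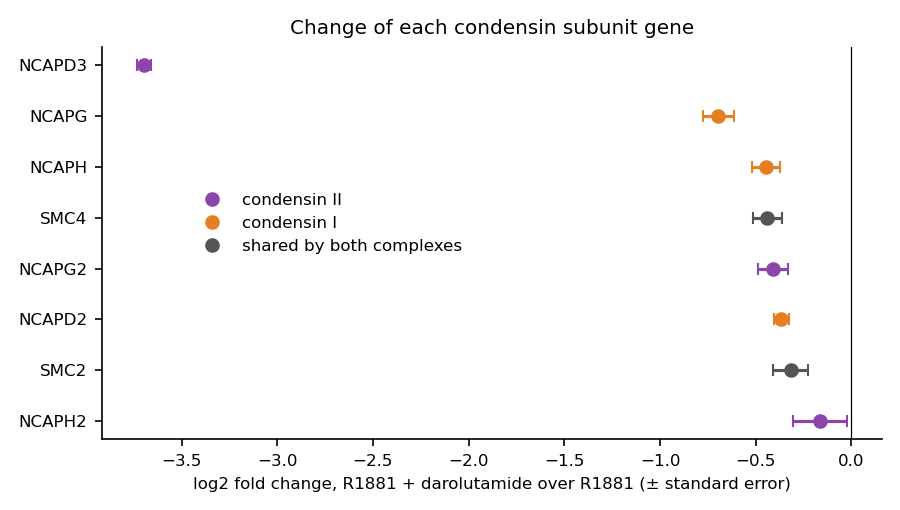
Log2 fold change of each condensin gene, R1881 with darolutamide over R1881 (horizontal axis, with standard errors from limma as bars), coloured by complex. NCAPD3 stands at -3.69, and the other 7 genes lie between -0.70 (NCAPG) and -0.16 (NCAPH2).

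NCAPG2, the second HEAT-repeat subunit of condensin II (chromosome 7, 158631169 to 158704804, minus strand), was lower by a much smaller step. It measured 52.2, 52.5, 54.3, 46.2 and 50.7 scaled CPM in darolutamide replicates 1 to 5, against 59.3, 66.7 and 78.4 scaled CPM as the lowest, median and highest R1881 values. The means were 51.2 ± 3.07 and 68.5 ± 8.30 scaled CPM (SD, n = 5 and 10), a log2 fold change of -0.41 (standard error 0.077, limma adjusted p = 0.000253). All darolutamide libraries were below all R1881 libraries. NCAPH2, the kleisin of condensin II (chromosome 22, 50508224 to 50524780, plus strand), was the member that did not pass. It measured 16.3, 15.3, 12.5, 26.0 and 15.9 scaled CPM in darolutamide replicates 1 to 5, against 14.1, 18.9 and 24.0 scaled CPM as the lowest, median and highest R1881 values. Its log2 fold change was -0.16 (standard error 0.139, limma adjusted p = 0.36), and the groups overlapped, with replicate 4 above every R1881 library and replicate 3 below all of them. Without darolutamide replicate 4, NCAPH2 was lower, at -0.32 (limma adjusted p = 0.0207), and without replicates 3 and 4 together it was at -0.24 and did not pass (limma adjusted p = 0.105). NCAPH2 was also the member with the fewest reads, 284 to 551 per library with darolutamide and 236 to 520 with R1881.

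All 3 genes of condensin I were lower with darolutamide, with no overlap between the treatments. NCAPG, its HEAT-repeat subunit in the place of NCAPG2 (chromosome 4, 17810979 to 17844865, plus strand), had the largest change after NCAPD3. It measured 30.6, 32.3, 30.5, 26.2 and 30.8 scaled CPM in darolutamide replicates 1 to 5, against 41.1, 47.9 and 60.9 scaled CPM as the lowest, median and highest R1881 values, a log2 fold change of -0.70 (standard error 0.079, limma adjusted p = 1.10e-06). NCAPH, the kleisin (chromosome 2, 96335766 to 96377091, plus strand), measured 23.7, 22.4, 25.0, 20.8 and 25.1 scaled CPM in the same darolutamide libraries, against 28.3, 32.0 and 38.1 with R1881, a log2 fold change of -0.45 (standard error 0.074, limma adjusted p = 7.55e-05). For both genes replicate 4 was the lowest darolutamide library. NCAPD2, the counterpart of NCAPD3 in condensin I (chromosome 12, 6493356 to 6531955, plus strand), measured 94.1, 88.2, 92.0, 95.0 and 98.4 scaled CPM with darolutamide, against 111, 123 and 129 with R1881. Relative to its level it had the narrowest spread of the 3, and a log2 fold change of -0.37 (standard error 0.039, limma adjusted p = 4.17e-07), a fall of 22.6%, where NCAPD3 fell by 92.3%.

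Both core ATPases were lower. SMC4 (chromosome 3, 160399274 to 160434954, plus strand) measured 78.2, 83.3, 83.5, 66.3 and 79.8 scaled CPM in darolutamide replicates 1 to 5, against 91.4, 104 and 125 scaled CPM as the lowest, median and highest R1881 values. Its log2 fold change was -0.44 (standard error 0.075, limma adjusted p = 0.000104), without overlap. SMC2 (chromosome 9, 104094260 to 104141419, plus strand) measured 52.7, 51.1, 51.3, 41.5 and 48.8 scaled CPM with darolutamide, against 47.9, 60.5 and 73.7 with R1881, a log2 fold change of -0.32 (standard error 0.092, limma adjusted p = 0.00895). The SMC2 values overlapped between the treatments. Replicate 4 was the lowest darolutamide library for both core genes and for NCAPG2, NCAPG and NCAPH, while it was the highest for NCAPH2.

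Many genes of late cell cycle carry near their start the cell cycle homology region (CHR), with the letters TTTGAA, through which they are held off outside division. Promoters were at hand for 7 of the 8 genes, with 10 starts in all, and the letters were found on either strand at 6 of the 10 starts, 1 each in 6 genes, against 15.2% of all 35116 promoters. The upstream start of NCAPD3 and the second starts of SMC2 and SMC4 held none. NCAPH had an NF-Y box but no CHR letters in this window, and NCAPD2 had 4 NF-Y boxes beside its CHR letters. The element is shown with its neighbouring bases for the 6 genes that held it, with the CHR letters in capitals. Each stretch is read in the direction of its gene, so that TTCAAA marks an element on the opposite strand.
NCAPD3: gcgggagcgagcTTTGAAagttgagcacgg
NCAPG2: ccggcgggtgcgTTTGAAtctggtccg
NCAPD2: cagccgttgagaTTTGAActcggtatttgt
NCAPG: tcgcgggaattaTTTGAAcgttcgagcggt
SMC2: ctcgcgccgaaaTTCAAAggaataaatagt
SMC4: gccgcactttttTTCAAAttagtggatccc
In GRCh38.p14 these are chr11:134223953-134223982 on the minus strand for NCAPD3, chr7:158704755-158704781 on the minus strand for NCAPG2, chr12:6493945-6493974 for NCAPD2, chr4:17810932-17810961 for NCAPG, chr9:104094294-104094323 for SMC2 and chr3:160399563-160399592 for SMC4, all on the plus strand. The first base of the element lay 3 bases before the annotated start in NCAPD3 and SMC2, 35 before it in NCAPG, 75 in SMC4 and 145 in NCAPD2, and 35 bases past it in NCAPG2. The part of these letters in the change of any member was not tested. A match does not show that the element is used in these cells.

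The R1881 libraries themselves fell into 2 levels for some members. Libraries 71 to 75 were lower than 51 to 55 in 4 of the 8 genes (2 to 5 with each R1881 library left out, and 2 without replicate 5, 7, 9 or 10), where 2.29% of all genes were lower and 0.805% higher (limma, adjusted over all genes). The log2 difference was -0.32 for NCAPG2 (limma adjusted p = 0.00202), -0.31 for SMC2 (0.028), -0.28 for NCAPH (0.0117) and -0.25 for SMC4 (0.0173). The other 4 did not pass, with -0.24 for NCAPG (adjusted p = 0.0691), -0.11 for NCAPD3 (0.0684), -0.05 for NCAPD2 (0.526) and 0.24 for NCAPH2 (0.171). The size of the change with darolutamide therefore moved with the R1881 run it was set against. Against 71 to 75 and against 51 to 55, the log2 fold change was -0.25 and -0.57 for NCAPG2, -0.31 and -0.59 for NCAPH, -0.31 and -0.57 for SMC4, and -0.16 and -0.47 for SMC2. SMC2 did not pass against 71 to 75 (limma adjusted p = 0.144), whereas the other 3 passed against both runs. NCAPG (-0.58 and -0.81) and NCAPD2 (-0.34 and -0.39) also passed against both runs, and NCAPH2 (-0.29 and -0.04) against neither. Of the 9 androgen-induced genes used to check the labels, 3 were higher in 71 to 75 than in 51 to 55 and none was lower. KLK3 was at 1397 ± 38.0 scaled CPM in 51 to 55 and at 1779 ± 78.0 in 71 to 75 (SD, n = 5 each).

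Each subunit of condensin I alone has a counterpart in condensin II, and SMC2 and SMC4 form 1 shared core. The difference of such a pair within a library hardly depends on the scaling of that library. NCAPD3 exceeded NCAPD2 by 0.65 ± 0.08 on the log2 scale with darolutamide and by 3.98 ± 0.08 with R1881 (SD, n = 5 and 10), a difference of -3.33 with a standard error of 0.043 (exact permutation test, two-sided, p = 0.000666, adjusted over 4 pairs p = 0.00133, the smallest p that 3003 arrangements can give). NCAPG2 exceeded NCAPG by 0.76 ± 0.06 with darolutamide and by 0.47 ± 0.11 with R1881, so that this pair moved the opposite way, by 0.28 with a standard error of 0.044 (exact permutation p = 0.000666, adjusted p = 0.00133). The 2 HEAT-repeat pairs thus moved in opposite directions. SMC4 exceeded SMC2 by 0.67 ± 0.06 with darolutamide and by 0.79 ± 0.08 with R1881, a small difference of -0.12 with a standard error of 0.036 (exact permutation p = 0.00266, adjusted p = 0.00355). NCAPH2 minus NCAPH was -0.47 ± 0.47 with darolutamide and -0.76 ± 0.33 with R1881, a difference of 0.28 with a standard error of 0.237 that did not pass (exact permutation p = 0.218, adjusted p = 0.218). Against R1881 libraries 51 to 55 alone that difference was 0.54 and passed (exact permutation, adjusted p = 0.0317), and against 71 to 75 alone it was 0.02.

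**Figure D3:**
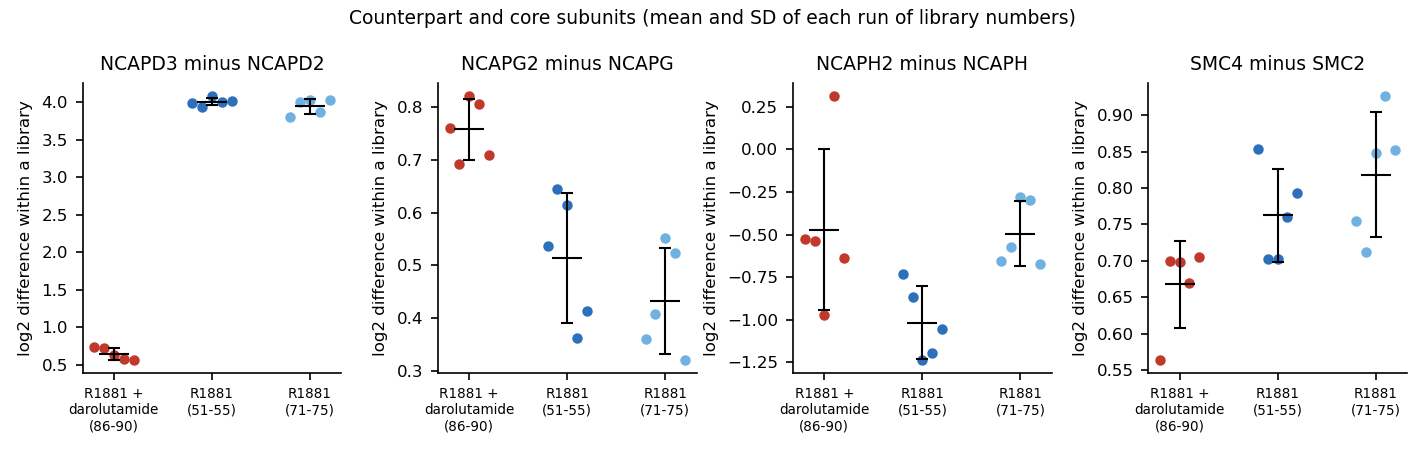
Difference of the log2 scaled CPM between counterpart subunits, and between both core subunits, within each library (vertical axes, not starting at 0), with 1 point per library and bars for the mean and SD of each run, R1881 with darolutamide at the left. NCAPD3 minus NCAPD2 averages 0.65 with darolutamide and 3.98 with R1881, and NCAPG2 minus NCAPG is higher with darolutamide, at 0.76 against 0.47.

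Divided by the exon length of the reference transcript of each gene, the levels of the subunits can be set beside each other roughly. Which transcripts of each gene the cells made was not examined, and the order and shares below depend on it. Per kb of exon, NCAPD3 was at 19.9 ± 0.81 scaled CPM with darolutamide and 259 ± 12 with R1881 (SD, n = 5 and 10). NCAPD2 was at 19.4 ± 0.78 and 25.0 ± 1.21, so that with darolutamide the libraries of NCAPD3 and NCAPD2 overlapped, whereas with R1881 every NCAPD3 value was above every NCAPD2 value. With darolutamide the order went on with SMC4 (15.3), NCAPG2 (12.6), SMC2 (8.28), NCAPG (6.56), NCAPH2 (5.16) and NCAPH (3.88 scaled CPM per kb). With R1881 it was SMC4 (20.8), NCAPG2 (16.9), NCAPG (10.7), SMC2 (10.4), NCAPH2 (5.69) and NCAPH (5.34 scaled CPM per kb). Neighbours in the order that did not overlap were, with darolutamide, NCAPD2 and SMC4, and NCAPG2 and SMC2, and with R1881, NCAPD3 and NCAPD2, NCAPG2 and NCAPG, and SMC2 and NCAPH2. NCAPD3 held 21.9% ± 0.64 of the summed per-kb level of the 8 genes with darolutamide and 73.2% ± 0.89 with R1881. Of the 3 genes of condensin II alone, it held 52.8% ± 1.58 with darolutamide and 92.0% ± 0.41 with R1881. In both treatments, every NCAPD3 value per kb was above every value of its condensin II partners, SMC2 and SMC4 included. Transcript levels do not give the amounts of the proteins, which were not measured.

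**Figure D4:**
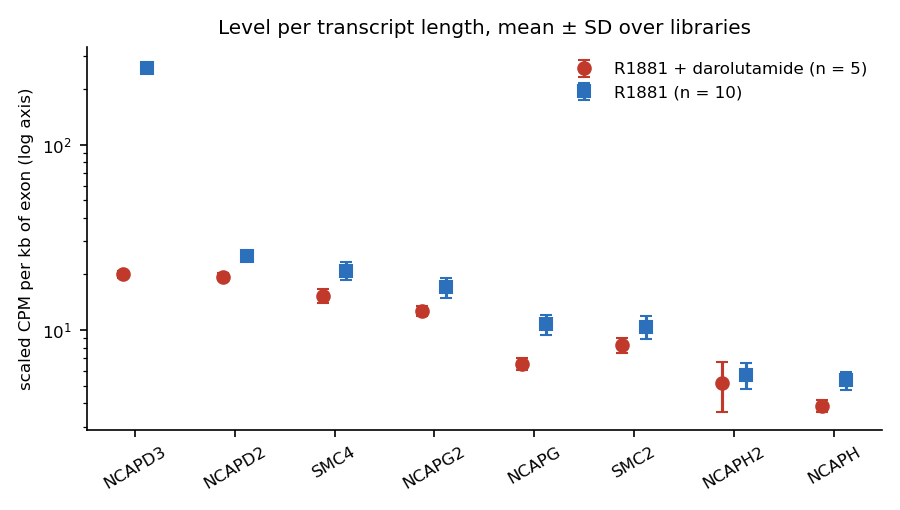
Scaled CPM per kb of exon of each condensin gene (log axis), mean ± SD, with R1881 and darolutamide (circles, n = 5) left of R1881 (squares, n = 10) for each gene. NCAPD3 is at 19.9 with darolutamide, next to NCAPD2 at 19.4, and at 259 with R1881, above the other 7 genes.

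The gene that starts opposite NCAPD3 was also lower. VPS26B, a subunit of the retromer that recycles membrane proteins from endosomes (chromosome 11, 134224671 to 134247788, plus strand), overlaps the upstream end of the annotated NCAPD3 gene by 834 bases. VPS26B does not reach the promoter stretch shown above for the downstream start. It was at 118 ± 4.76 scaled CPM with darolutamide and 204 ± 5.07 with R1881 (SD, n = 5 and 10), a log2 fold change of -0.79 (standard error 0.030, limma adjusted p = 2.42e-13), without overlap between the treatments. JAM3, a junctional adhesion molecule that overlaps the other end of NCAPD3 by 1889 bases on the opposite strand, was higher with darolutamide at a low level, 2.92 ± 0.57 against 1.22 ± 0.26 scaled CPM. The library kit keeps strand, but whether the counting used it is not given in the sources used here, so that reads of genes that overlap on opposite strands may not be told apart. At the other members, a neighbour with a facing start close by was lower at NCAPD2 (MRPL51, a mitochondrial ribosomal protein, log2 fold change -0.17, limma adjusted p = 0.000143) and higher at SMC4 (IFT80, a protein of cilia, 0.37, limma adjusted p = 0.000613). It did not pass at NCAPG (DCAF16, -0.03, limma adjusted p = 0.688) or NCAPH2 (LMF2, -0.35, limma adjusted p = 0.385). MRPL51 overlaps NCAPD2 by 486 bases, IFT80 overlaps SMC4 by 607 and LCORL overlaps NCAPG by 3679, each on the opposite strand. The limit on telling reads apart holds for these genes too. The LMF2 value turned on 1 library: without darolutamide replicate 4 it was -0.76 and passed (limma adjusted p = 0.00318), and with each library left out it ran from -0.76 to -0.05. In darolutamide replicate 4, in which NCAPH2 was high, LMF2 measured 45.5 scaled CPM against 5.94 to 14.4 in the other darolutamide libraries, and SCO2, which overlaps the far end of NCAPH2, 19.7 against 5.15 to 8.09. Of the other nearest listed genes, NIPSNAP3A, 606264 bases from SMC2, was higher (355 ± 22.3 against 106 ± 4.91 scaled CPM, log2 fold change 1.74, limma adjusted p = 4.94e-16), as were ESYT2 near NCAPG2 (0.17) and TRIM59, which overlaps SMC4 (0.22). GRIN3A, 2355613 bases from SMC2, was lower (-0.34). The neighbours THAP5P1 (-0.25), SCO2 (-0.22), GAPDH (-0.13), LCORL (0.14), SNRNP200 (0.03) and ARID5A (0.10) did not pass. Without darolutamide replicate 4, SCO2 (-0.52, limma adjusted p = 0.00636) and GAPDH (-0.19, limma adjusted p = 0.00617) were lower too, while GRIN3A did not pass against R1881 libraries 71 to 75 alone (-0.18) and TRIM59 did not against 51 to 55 alone (0.17). TRIM59 also did not pass with a block for the replicate number (0.21). Scaled to library totals, LCORL (0.21) and SNRNP200 (0.11) were higher.

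The genes most like NCAPD3 over the 15 libraries, by the root mean square difference of log2 values after centring, were looked up among the 10350 genes with a mean of at least 10 scaled CPM. They were TTN, the giant muscle protein titin (0.195 on the log2 scale), FKBP5, a co-chaperone of steroid receptors (0.195), TUBA3D (0.232), PGC, a pepsinogen (0.256), and TUBA3E (0.309). TTN, PGC, TUBA3D and TUBA3E passed the filter only through R1881, where they were high, and the darolutamide values of TTN rest on 15 to 32 reads, so its fold depends on the pseudocount. TUBA3D and TUBA3E are near-identical tubulin genes, so their values may share reads. FKBP5 was at 152 ± 11.1 scaled CPM with darolutamide and 1502 ± 87.4 with R1881, a log2 fold change of -3.30. The genes most like NCAPG were ERCC6L, a helicase of mitotic chromosomes (0.056), NUSAP1, a spindle protein (0.059), DDIAS (0.062), CDC25C, a phosphatase that drives entry into mitosis (0.066), and HMMR, a spindle and hyaluronan receptor protein (0.070). Values were centred but not scaled, so the size of the change with darolutamide weighs heavily in this measure. With log2 fold changes of -3.69 for NCAPD3 and -0.70 for NCAPG, the lists had to differ, which is no result of its own. NUSAP1 was at 61.7 ± 3.17 scaled CPM with darolutamide and 97.1 ± 9.64 with R1881.

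Lists of genes around condensin gave the setting, described by counts from the same fit, to be read against the 23.7% lower and 22.8% higher of all genes. Of 25 regulators of condensin and partners in chromosome assembly, 21 were lower, none was higher and the median log2 fold change was -0.56. They included MKI67, which coats mitotic chromosomes (61.7 ± 3.6 against 108 ± 12.5 scaled CPM, log2 fold change -0.79), AURKA, a mitotic kinase (-0.67), CDCA8, a subunit of the chromosomal passenger complex (-0.61), and KMT5A, listed as SETD8, which writes the H4K20 methylation that condensin II reads (-0.56, limma adjusted p = 4.94e-11). SMCHD1, a noncanonical SMC protein, was at 0.04 and did not pass. In this list too, 12 of 25 genes were lower in R1881 libraries 71 to 75 than in 51 to 55, beside 2.29% of all genes. In the 2 lists that follow, 5 of 19 cohesin genes and 1 of 6 SMC5/6 genes were lower between these runs. Of 19 genes of cohesin and its regulators, which hold sister chromatids together, 11 were lower and 1 was higher, with a median of -0.21. PDS5B, which regulates release of the ring, was at -0.54, CDCA5 (sororin), which protects cohesion, at -0.47, SGO2, listed as SGOL2, at -0.63 and the ATPase SMC1A at -0.23. STAG2 was the higher gene, at 0.14 with a limma adjusted p of 0.0498, and did not pass in 14 of 25 other settings. Of 6 genes of the SMC5/6 complex, which acts in DNA repair, none was lower and 2 were higher, which is 2 of 6 beside 22.8% of all genes. These were SMC6 (27.4 ± 1.69 against 17.1 ± 1.56 scaled CPM, log2 fold change 0.67, limma adjusted p = 1.76e-07) and the ubiquitin ligase NSMCE1 (0.21). SMC5 (0.12), NSMCE4A (0.07) and NSMCE2 (-0.05) did not pass. Against R1881 libraries 71 to 75 alone, SMC5 was higher (0.23, limma adjusted p = 0.00779). With library totals 4 of the 6 were higher, but so were 5326 of all 17272 genes, whose median log2 fold change moved to 0.07. The counts of 0 in these lists stayed at 0 at an unadjusted p below 0.05 and by DESeq2 and edgeR.

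**Figure D5:**
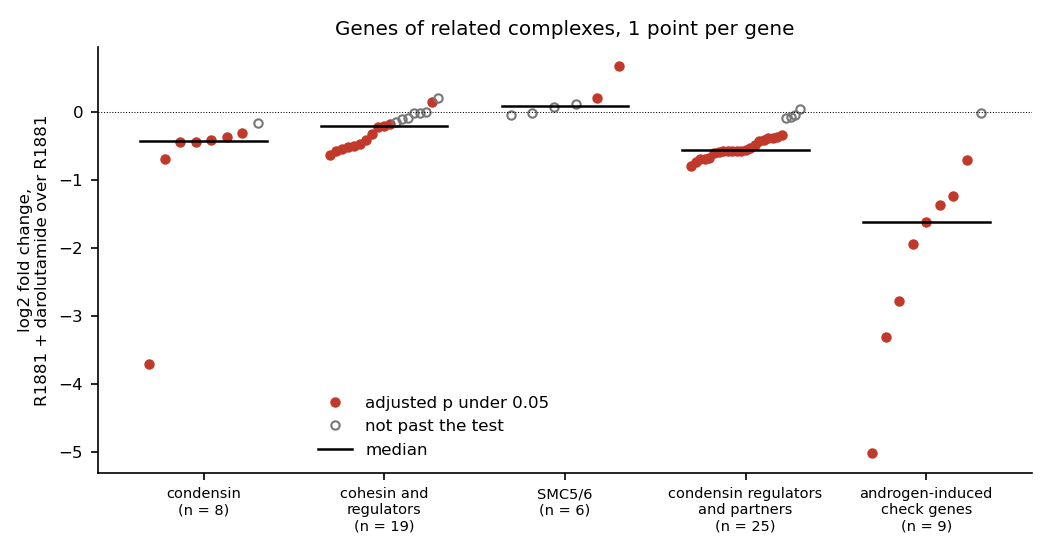
Log2 fold change of each gene, R1881 with darolutamide over R1881 (vertical axis), by list, with filled points for a limma adjusted p below 0.05, open points for genes that did not pass and a line at the median of each list. The medians are -0.42 for condensin, -0.21 for cohesin and its regulators, 0.09 for the SMC5/6 complex, -0.56 for regulators and partners of condensin and -1.62 for the androgen-induced genes.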

How the data were processed

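Expression was measured by RNA sequencing of poly-A RNA from LNCaP cells in 15 libraries, 5 of R1881 with darolutamide and 10 of R1881. Per the paper and the submitters' notes, the authors used STAR with GRCh38 and featureCounts, with output as CPM; the versions, annotation, gene filter and strand setting are not given in the sources used here. The deposited table holds a scaled signal: multiplied by 1 factor per library, 100% of its values came out as whole reads (tolerance 0.001 reads), and columns summed to 1005403 to 1078567. The recovered reads, 15830745 to 25317567 per library, served only the count-based alternatives. Replicates of a treatment differed by more than sampling noise (chi-square of reads per degree of freedom at least 1.63).

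The values were tested with limma 3.58.1 in R 4.3.3 on log2(value + 0.5) over all 17272 genes, without a filter, and fold changes are on that scale, which understates those of low genes. Adjusted p-values are Benjamini-Hochberg. Counterpart pairs were compared by exact permutation over libraries. Alternatives were DESeq2 1.42.0 and edgeR 4.0.16 on the recovered reads, pseudocounts of 0.1 and 1, a filter at a mean of 1, scaling to library totals, a block for the replicate number, either R1881 run alone, and leaving out each library or darolutamide replicates 3 and 4 together. The gene calls of limma and edgeR were tried on simulated counts. Replicate numbers were not taken as pairs, since same-numbered libraries deviated from their group means with correlations of only -0.139 to 0.335.

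The 8 members, the gene lists and the tests were chosen with earlier results of these data known. The text names, by rule, the members, the genes of each related list with the smallest p and any that moved against the majority, the 5 genes most like NCAPD3 and NCAPG, and the nearest listed genes on either side of a member. Older symbols were matched for SGO1, SGO2, NSMCE3, KMT5A, HASPIN and M18BP1. Positions and exon lengths are those of the GENCODE annotation for GRCh38, matched for 14686 of 17272 genes, and promoters are from RefSeq (GRCh38.p14). Some genes of the marker and androgen-induced lists are not reported here.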

Additional observations from a re-analysis of the deposited data

Results flagged for a closer look

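A library stood well apart from the rest of its group in 11 of the 114 groups of values examined, and by chance about 1 in 20 would be expected to do so. Among the members this was NCAPH2 in darolutamide replicate 4, at 25.98 scaled CPM against 12.5 to 16.3 in the other 4 libraries. The SMC4 minus SMC2 log2 difference was 0.564 in darolutamide replicate 1, against 0.670 to 0.706 in the others. Darolutamide replicate 4 also stood apart in 6 other genes. LMF2 was at 45.50 (others 5.94 to 14.4), SCO2 at 19.66 (5.15 to 8.09), ARID5A at 12.50 (4.22 to 5.96), FKBP5 at 133.2 (154 to 162), ERCC6L at 12.92 (15.004 to 15.4) and DDIAS at 16.22 scaled CPM (19.6 to 20.8). LMF2, SCO2 and NCAPH2 are neighbours on chromosome 22. Among the R1881 libraries, LMF2 was at 33.04 in replicate 6 (others 14.2 to 21.9), SGOL2 at 37.18 in replicate 9 (22.6 to 30.2) and NSMCE2 at 24.06 scaled CPM in replicate 10 (18.3 to 20.8).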

How the results depend on the processing

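Over 25 alternatives for each of the 8 members, 2 of 200 results changed their side of the threshold and none changed direction: NCAPH2 passed without darolutamide replicate 4 (-0.32, limma adjusted p = 0.0207; -0.32 to -0.063 with each library left out), and SMC2 did not pass against R1881 libraries 71 to 75 alone (-0.16, limma adjusted p = 0.144). NCAPD3 stayed between -3.75 and -3.62. NCAPH2 minus NCAPH passed against 51 to 55 alone (0.54, exact permutation adjusted p = 0.0317). With each R1881 library left out, 2 to 5 members differed between the R1881 runs, and 2 did without R1881 replicate 5, 7, 9 or 10. The count of higher cohesin genes (1) was 0 against 51 to 55 alone, 0 with a pseudocount of 0.1, 0 with the replicate block, 2 with library totals and 0 to 1 with each library left out, and 4 genes of the SMC5/6 complex were higher with library totals. Library totals gave 3030 lower and 5326 higher genes, against 4098 and 3946, with the median of all genes at 0.07. The replicate block gave 3165 and 3077, with 7 members lower, and 0 of 5 darolutamide libraries had its closest R1881 library under the same number. The block was not run for the pair differences, since 5 pairs give too few sign changes to pass. The cause of these changes was not tested. The fewest reads behind a member, 236 for NCAPH2, limit its precision.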
